A study of Daucus carota with 6 samples.

Results

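Class III peroxidases are heme enzymes of plants that are mostly secreted to the cell wall or the vacuole. They use hydrogen peroxide to oxidise phenols, among them the monolignols that polymerise to lignin, the phenolic side groups of suberin and the tyrosines that cross-link extensins in the wall. Peroxidases of red beet can also oxidise betanin. The family is large in every flowering plant, and most members carry numbers that follow the nearest gene of Arabidopsis, so a carrot gene called peroxidase 72-like is named by sequence likeness and not by a tested role.

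The members described here were the rows of the deposited table whose protein description from the NR database named a numbered, cationic or anionic peroxidase, with glutathione, ascorbate and thioredoxin peroxidases and peroxiredoxins left out. The rule found 35 of 35073 rows, of which 32 had locus IDs and 3 had numbered IDs. A total of 34 carried both the plant peroxidase domain of Pfam and KEGG entry K00430, the entry of plant peroxidases. The remaining row, DCAR_001517.v1.0, is described as OVEREXPRESSOR OF CATIONIC PEROXIDASE 3, a homeodomain protein known in Arabidopsis as a regulator of defence, and is not a peroxidase. It matched the words of the rule and is kept in the counts.

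RNA was sequenced from fleshy roots of carrot (Daucus carota). The 3 BC samples came from betanin-transgenic carrots, which carry CYP76AD1S, cDOPA5GTS and DODA1S and accumulate the red pigment betanin through the whole plant, and the 3 WT samples came from non-transgenic carrots. The labels give no promoter, cultivar, number of transgenic lines or plant age, nor whether each sample is a plant of its own, so the p-values reflect variation among these samples alone, which may be technical. Levels are FPKM, fragment counts scaled to transcript length and library size, which can be compared between genes, and the read depth behind them is unknown.

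Rows with at least 1 FPKM in at least 3 of the 6 samples were tested, which kept 20 of the 35 members and 21033 rows in all. Among those 21033 rows, 22.8% were higher and 23.5% lower in BC at an adjusted p below 0.05 (limma with Benjamini-Hochberg, BH, adjustment), 46.4% in either direction. Of the 20 tested members, 9 were higher and 1 was lower in BC. The 9 that rose were peroxidase 42, 2 genes called peroxidase 12-like, and single genes called cationic peroxidase 1-like and peroxidase 11, 31-like, 3-like, 44 and 63. The member that fell was one of 2 rows called peroxidase 73-like. At a change of at least 2-fold the members counted 8 higher and 0 lower, against 12.7% and 7.23% of all tested rows. The median difference of the tested members was 0.64 on the log2(FPKM + 1) scale, against -0.02 over all tested rows. In bulk tissue, a different number of cells of a type cannot be told apart from a different amount of RNA per cell.

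The filter itself weighs on this count. Cationic peroxidase 1-like, peroxidase 11 and the less abundant peroxidase 12-like gene had no WT sample at 1 FPKM and were tested only through their BC values, and of all rows tested in that way 98.9% were higher in BC. Among members with at least 1 WT sample at 1 FPKM, 6 of 17 (35.3%) were higher in BC, against 18.8% of all such rows. Nearest to the filter on the inside were peroxidase 11, which reached 1.08 FPKM in the lowest of its 3 qualifying samples, and the peroxidase 45-like gene DCAR_000970.v1.0, which reached 1.44 FPKM there. Nearest on the outside were the peroxidase 12-like gene DCAR_014451.v1.0, at 0.81 FPKM in its sample of rank 3, and the cationic peroxidase 1-like gene DCAR_023983.v1.0, at 0.71 FPKM there.

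**Figure D1:**
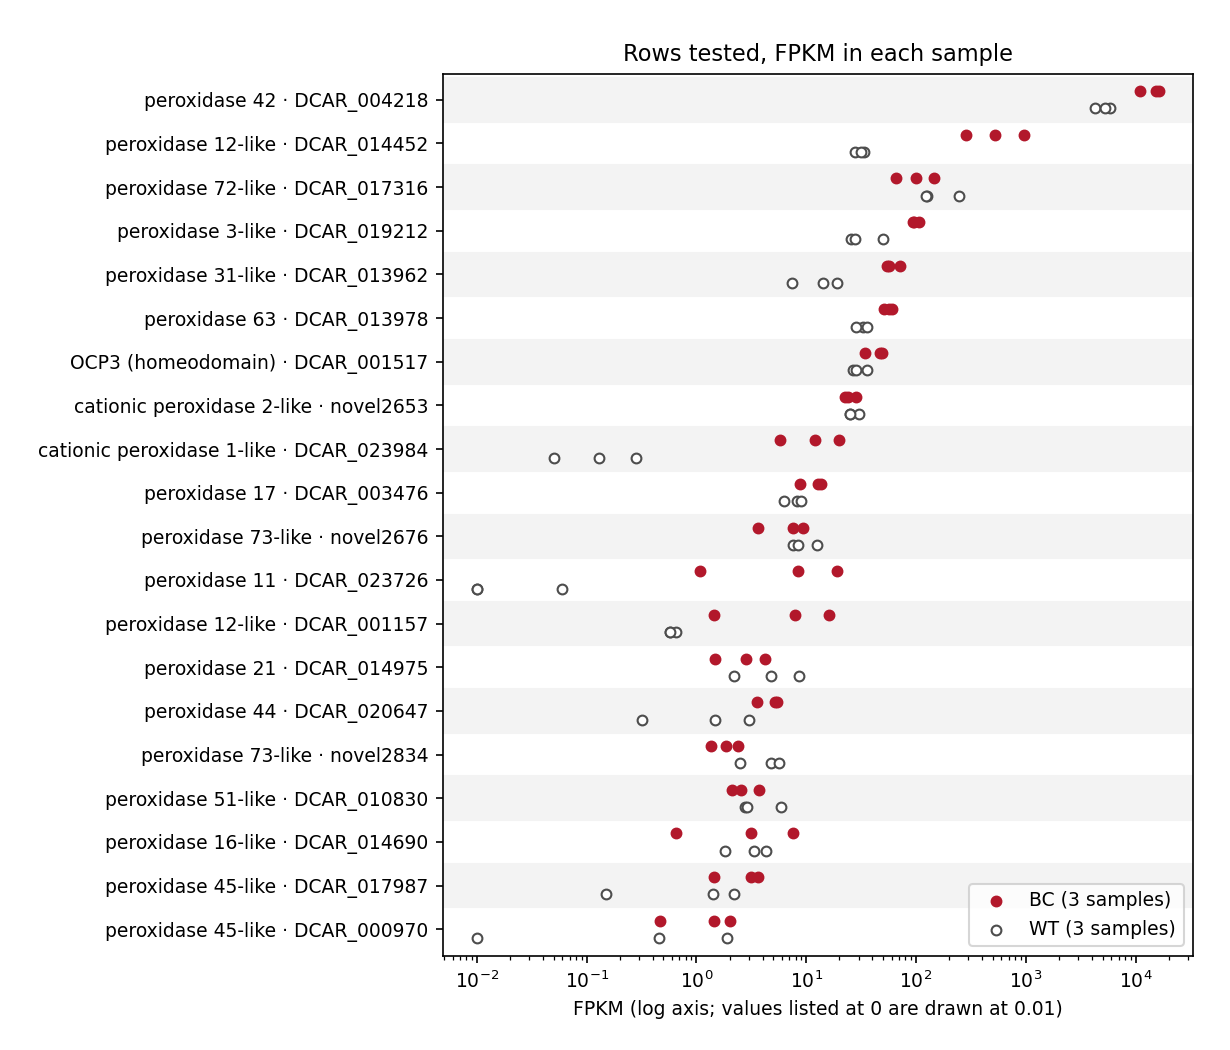
FPKM of the 20 tested rows in each of 3 BC samples (filled) and 3 WT samples (open), on a log axis, ordered by the higher of the 2 group means. Peroxidase 42 lies far to the right of every other row, from 11009.25 to 16338.74 FPKM in BC and from 4253.39 to 5872.22 FPKM in WT, and the BC and WT points of peroxidase 11 and cationic peroxidase 1-like lie far apart.

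Peroxidase 42 (DCAR_004218.v1.0) carried most of the family's transcript level. It stood at 15248.69, 16338.74 and 11009.25 FPKM in BC replicates 1 to 3, against 5872.22, 4253.39 and 5295.19 FPKM in WT replicates 1 to 3. The groups did not overlap, and every BC value was above every WT value. The mean was 2.76 times as high in BC, with a difference of 1.46 on the log2(FPKM + 1) scale (SE 0.28, limma adjusted p = 0.00587). Among all 35073 rows it had rank 2 by FPKM in each BC sample, and ranks 5, 9 and 6 in WT replicates 1 to 3. Without any filter on low levels the call was lost (adjusted p = 0.0646), within a range from 0.00155 to 0.0646 over 16 alternatives (limma, BH).

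Summed over all 35 rows, the members reached 16240.8, 17775.7 and 11766.2 FPKM in BC and 6192.3, 4743.4 and 5609.3 FPKM in WT. This was 0.993% to 1.4% of all FPKM in BC samples and 0.415% to 0.522% in WT samples. Peroxidase 42 made up 91.9% to 93.9% of the family sum in BC and 89.7% to 94.8% in WT. The sum without it was 1062.0 ± 345.3 FPKM in BC and 374.7 ± 99.83 FPKM in WT (SD, n = 3 each), a ratio of 2.83. The ratio for the whole sum was 2.77. Within that remainder, the peroxidase 12-like gene DCAR_014452.v1.0 alone averaged 590.6 FPKM in BC and 30.86 FPKM in WT. The ratio of 2.83 thus rests largely on that gene and does not describe the other members.

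The remainder of the family was made up differently in the 2 groups. The peroxidase 12-like gene DCAR_014452.v1.0 supplied 53.4%, 66.8% and 37.3% of the sum without peroxidase 42 in BC replicates 1 to 3, against 8.72%, 6.8% and 9.97% in WT replicates 1 to 3. It had rank 2 among the members by mean level in BC and rank 5 in WT. Its values were 529.44, 959.84 and 282.55 FPKM in BC and 27.92, 33.34 and 31.31 FPKM in WT. The WT samples lay close together and the BC samples spread widely above them. The difference was 4.05 on the log2(FPKM + 1) scale (SE 0.40, limma adjusted p = 4.11e-04), and the mean was 19.1 times as high in BC.

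Peroxidase 72-like (DCAR_017316.v1.0), whose namesake in Arabidopsis acts in lignification, had rank 3 in BC and rank 2 in WT. It had 99.56, 66.22 and 146.99 FPKM in BC and 124.99, 247.96 and 122.60 FPKM in WT. The groups overlapped, since BC replicate 3 was above WT replicates 1 and 3. The difference of -0.65 (SE 0.37) on the log2(FPKM + 1) scale did not pass the test (limma adjusted p = 0.191).

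At intermediate levels, 3 further members rose, with no overlap between the groups. Peroxidase 3-like (DCAR_019212.v1.0), whose Arabidopsis namesake is a cold-inducible gene also known as RCI3, had 93.09, 95.08 and 105.99 FPKM in BC and 25.66, 49.72 and 28.04 FPKM in WT. The BC samples were nearly equal, and the difference was 1.54 on the log2(FPKM + 1) scale (SE 0.24, limma adjusted p = 0.00263). Peroxidase 31-like (DCAR_013962.v1.0) had 56.35, 71.12 and 54.07 FPKM in BC and 7.38, 19.17 and 14.10 FPKM in WT. Its difference was 2.16 (SE 0.31, limma adjusted p = 0.00196), and here the WT samples were the more spread. Peroxidase 63 (DCAR_013978.v1.0) had 50.67, 60.13 and 56.39 FPKM in BC and 32.93, 36.08 and 28.59 FPKM in WT. It rose by less than 2-fold, with a difference of 0.76 on the log2(FPKM + 1) scale (SE 0.12, limma adjusted p = 0.00241). The calls of these 3 genes and of DCAR_014452.v1.0 held under all 16 alternatives that were run, including the removal of each sample in turn.

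In BC the levels of peroxidase 72-like and peroxidase 3-like, and those of peroxidase 31-like and peroxidase 63, did not separate beyond their spread. In WT the order ran from peroxidase 42 through peroxidase 72-like to peroxidase 3-like, peroxidase 63 and DCAR_014452.v1.0, and the last 3 of these overlapped, at 34.5 ± 13.3, 32.5 ± 3.76 and 30.9 ± 2.74 FPKM (SD, n = 3).

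**Figure D2:**
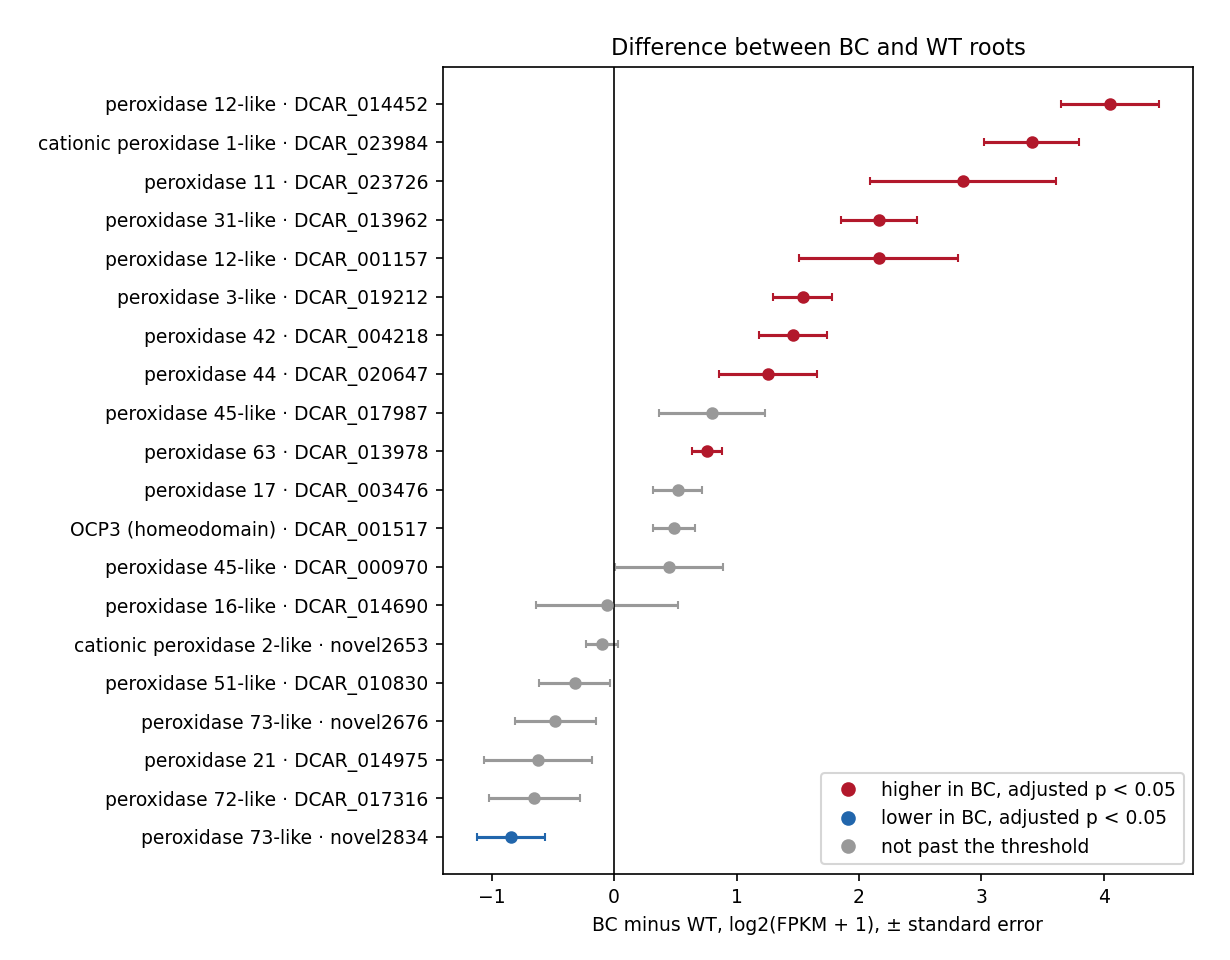
BC minus WT on the log2(FPKM + 1) scale for the 20 tested rows, with bars of 1 standard error from the fit on 3 BC and 3 WT samples, coloured by whether the row passed an adjusted p of 0.05. The values run from 4.05 for peroxidase 12-like (DCAR_014452.v1.0) to -0.84 for peroxidase 73-like (novel2834), and with a pseudocount of 0.1 peroxidase 11 (5.63) and cationic peroxidase 1-like (5.57) would come first.

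A second set of members was almost silent in WT and present in BC at low levels. Cationic peroxidase 1-like (DCAR_023984.v1.0), named after a peanut enzyme, had 12, 19.70 and 5.75 FPKM in BC and 0.13, 0.05 and 0.28 FPKM in WT. The difference was 3.41 on the log2(FPKM + 1) scale (SE 0.39, limma adjusted p = 7.30e-04), and the call held under all 16 alternatives. Its size depended on the pseudocount, at 5.57 with 0.1 and 1.68 with 5. Peroxidase 11 (DCAR_023726.v1.0) had 8.37, 19.18 and 1.08 FPKM in BC, and in WT it was listed at 0 in replicates 1 and 2 and at 0.06 FPKM in replicate 3. The peroxidase 12-like gene DCAR_001157.v1.0 had 7.86, 15.96 and 1.45 FPKM in BC and 0.58, 0.65 and 0.58 FPKM in WT. Peroxidase 11 and DCAR_001157.v1.0 rested on few samples. BC replicate 3 was only slightly above 1 FPKM for both.

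The difference of peroxidase 11 was 2.85 (SE 0.76, adjusted p = 0.0216) and that of DCAR_001157.v1.0 was 2.16 (SE 0.65, limma adjusted p = 0.0328). With pseudocounts of 0.1 and 5 these were 5.63 and 1.32 for peroxidase 11 and 3.05 and 1.10 for DCAR_001157.v1.0. At 0.1, peroxidase 11 and cationic peroxidase 1-like thus stood above DCAR_014452.v1.0, whose difference was 4.08 there. The call of peroxidase 11 was lost without BC replicate 1 (adjusted p = 0.0761), WT replicate 1 (0.0605), WT replicate 2 (0.0541) or WT replicate 3 (0.0621), and with a pseudocount of 5 (0.051), within a range from 8.89e-04 to 0.0761 over 15 alternatives (limma, BH). That of DCAR_001157.v1.0 was lost without BC replicate 1 (adjusted p = 0.104), BC replicate 2 (0.0607), WT replicate 1 (0.0834), WT replicate 2 (0.0722) or WT replicate 3 (0.0883), with a pseudocount of 5 (0.0554), with no filter (0.0518) and with quantile normalization (0.0755). Its adjusted p ranged from 0.00122 to 0.104 over 15 alternatives (limma, BH).

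Members named after root hair genes did not move together. In Arabidopsis, peroxidases 44 and 73 act in root hair growth. Peroxidase 44 (DCAR_020647.v1.0) had 5.17, 3.58 and 5.39 FPKM in BC and 0.32, 3.04 and 1.48 FPKM in WT, a difference of 1.26 on the log2(FPKM + 1) scale (SE 0.40, limma adjusted p = 0.0403), or 1.89 and 0.57 with pseudocounts of 0.1 and 5. WT replicate 2 lay just under the lowest BC sample. This call was lost without any 1 of BC replicates 1, 2 or 3 (adjusted p = 0.117, 0.0545 and 0.1) or WT replicates 1 or 3 (0.0667 and 0.0957). It was also lost with a pseudocount of 0.1 (0.0673), no filter (0.0616), equal totals (0.0507), quantile normalization (0.0534) and the replicate number as a block (0.0789), within a range from 0.0108 to 0.117 over 15 alternatives (limma, BH).

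Of the 2 rows called peroxidase 73-like, novel2834 had 1.87, 2.41 and 1.37 FPKM in BC and 4.76, 2.49 and 5.66 FPKM in WT. The difference was -0.84 on the log2(FPKM + 1) scale (SE 0.28, limma adjusted p = 0.0449), or -0.42 with a pseudocount of 5, and WT replicate 2 was barely above BC replicate 2. Removing BC replicate 1, 2 or 3 ended the call (adjusted p = 0.112, 0.0516 and 0.111), as did removing WT replicate 1 or 3 (0.126 and 0.143), no filter (0.0672), median-ratio size factors (0.0599) and the replicate block (0.106), within a range from 0.00943 to 0.143 over 15 alternatives (limma, BH). The second row, novel2676, had 7.59, 3.60 and 9.38 FPKM in BC and 7.62, 12.57 and 8.44 FPKM in WT, and its difference of -0.48 (SE 0.33) did not pass the test (limma adjusted p = 0.281). Both rows were matched by the authors to the same RefSeq protein, so they may be pieces of 1 gene and may not be independent of each other, which was not tested. Their levels did not run in parallel. BC replicate 2 was the highest BC sample of novel2834 and the lowest of novel2676, and WT replicate 2 was the lowest WT sample of novel2834 and the highest of novel2676.

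The other 8 tested members did not pass the test. Those with a difference above 0 on the log2(FPKM + 1) scale were the 2 genes called peroxidase 45-like, peroxidase 17 and the homeodomain gene. Peroxidase 17 (DCAR_003476.v1.0), whose Arabidopsis namesake acts in the formation of lignified tissue, had 12.82, 13.55 and 8.85 FPKM in BC and 8.26, 6.24 and 8.92 FPKM in WT, and only BC replicate 3 fell within the WT range. Its difference of 0.52 (SE 0.20) on the log2(FPKM + 1) scale had an adjusted p of 0.071, and of 0.0205 without BC replicate 3 (limma, BH), within a range from 0.0205 to 0.198 over 16 alternatives. The homeodomain gene DCAR_001517.v1.0 had 46.60, 49.24 and 34.29 FPKM in BC and 35.77, 26.77 and 28.69 FPKM in WT. Its difference was 0.49 (SE 0.17, adjusted p = 0.0532, and 0.0149 without BC replicate 3 or 0.0427 without WT replicate 1, in a range from 0.0149 to 0.158 over 16 alternatives, limma, BH).

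The peroxidase 45-like gene DCAR_017987.v1.0 averaged 2.74 ± 1.14 FPKM in BC and 1.26 ± 1.04 FPKM in WT (SD, n = 3 each). DCAR_000970.v1.0 of the same name averaged 1.31 ± 0.779 FPKM in BC and 0.78 ± 0.98 FPKM in WT. Cationic peroxidase 2-like (novel2653), named after another peanut enzyme, was the steadiest member that did not pass, at 28.56, 23.79 and 22.52 FPKM in BC and 24.97, 30.19 and 25.18 FPKM in WT. Its difference was -0.10 with a standard error of 0.13. Peroxidase 21 (DCAR_014975.v1.0) averaged 2.81 ± 1.36 FPKM in BC and 5.17 ± 3.19 FPKM in WT, peroxidase 51-like (DCAR_010830.v1.0) 2.81 ± 0.836 FPKM in BC and 3.88 ± 1.78 FPKM in WT, and peroxidase 16-like (DCAR_014690.v1.0) 3.75 ± 3.47 FPKM in BC and 3.16 ± 1.26 FPKM in WT. The adjusted p of these 6 genes ranged from 0.171 to 0.945 (limma, BH).

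The samples of BC differed among themselves in many of the members that rose. Of the 8 members raised at least 2-fold, 6 were highest in BC replicate 2 and lowest in BC replicate 3, an order that 32.7% of all rows raised at least 2-fold and 18.4% of all tested rows had. The size of that gap varied. From the lowest to the highest BC sample, peroxidase 11 spanned 17.8-fold, DCAR_001157.v1.0 11.0-fold, cationic peroxidase 1-like 3.43-fold and DCAR_014452.v1.0 3.4-fold. By contrast peroxidase 42 spanned 1.48-fold, peroxidase 31-like 1.32-fold and peroxidase 3-like 1.14-fold, the last with its highest value in BC replicate 3. On the log2(FPKM + 1) scale, the median SD within BC was 0.56 for these 8 members, against 0.29 for all tested rows raised at least 2-fold. Within WT it was 0.19 for the 8 members and 0.20 for those rows. Cationic peroxidase 1-like, peroxidase 11 and DCAR_001157.v1.0 were under 1 FPKM in WT, where this scale compresses any spread (WT SD 0.14, 0.05 and 0.04). Peroxidase 31-like, peroxidase 3-like and peroxidase 44 were more spread in WT (0.65, 0.50 and 0.81) than in BC (0.21, 0.10 and 0.26). DCAR_014452.v1.0 (0.13 in WT, 0.88 in BC) and peroxidase 42 (0.24 and 0.30) were more spread in BC.

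**Figure D3:**
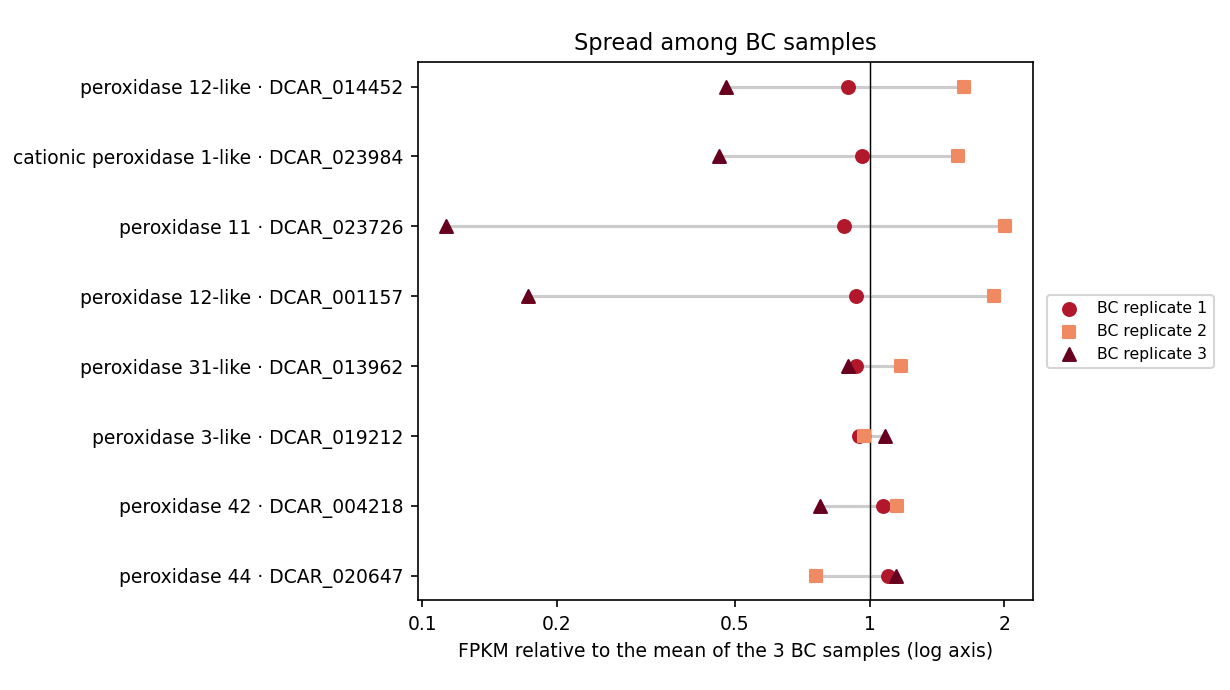
FPKM of each BC sample divided by the mean of the 3 BC samples, on a log axis, for the 8 members raised at least 2-fold, with members ordered by their difference from WT. Peroxidase 11 and the peroxidase 12-like gene DCAR_001157.v1.0 span 17.8-fold and 11.0-fold between BC replicates 2 and 3, while peroxidase 3-like spans 1.14-fold.

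Of the 15 members that were not tested, 1 was listed at 0 in all 6 samples, and none reached 1 FPKM in more than 2 samples. The BC mean was above the WT mean for 13 of them and below it for 1. For 6 of them every BC sample was above every WT sample, and for 0 every BC sample was below. Of the 6711 rows of the table that were above 0 and did not pass the filter, 63.1% had the higher mean in BC, 17.0% had every BC sample above every WT sample and 6.9% every BC sample below. Among tested rows the groups did not overlap for 9 (above) and 1 (below) of the 20 tested members, against 27.1% and 30.0% of all tested rows. Of these 9, 3 were tested only through their BC values, and for them the filter itself set every BC sample above every WT sample. Low values like those of the untested members can rest on very few fragments, and RSEM divides fragments shared by similar genes between them.

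Several of these low rows lay near another peroxidase row on the chromosome, which was not always a higher one. By the gene order of the RefSeq annotation of DH1 v3.0, to which 34 of the 35 members could be matched, peroxidase rows within 3 genes of each other formed 7 groups, of which 3 held 2 or more members. The largest held 4 genes called peroxidase 12-like. One was DCAR_014452.v1.0, described above. Its neighbour DCAR_014451.v1.0 had 4.02, 8.28 and 0.71 FPKM in BC and 0.28, 0.81 and 0.45 FPKM in WT. DCAR_014450.v1.0 had 0.76, 1.47 and 0.18 FPKM in BC and was listed at 0 in every WT sample. DCAR_014449.v1.0 had 1.45, 0.46 and 2.36 FPKM in BC and 0.00, 0.41 and 0.06 FPKM in WT, so in it BC replicate 2 was the lowest BC sample, unlike in the other 3.

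The second group held 3 genes called lignin-forming anionic peroxidase-like, after a tobacco enzyme. DCAR_023523.v1.0 had 2.84, 4.95 and 0.40 FPKM in BC and 0.00, 0.00 and 0.06 FPKM in WT, and DCAR_023522.v1.0 had 2.26, 3.17 and 0.54 FPKM in BC and 0.00, 0.13 and 0.13 FPKM in WT. DCAR_023521.v1.0 averaged 0.677 ± 0.461 FPKM in BC and 0.02 ± 0.0346 FPKM in WT (SD, n = 3 each). All 3 were highest in BC replicate 2 and lowest in BC replicate 3 among the BC samples, and in none did the groups overlap. The third group was a pair called cationic peroxidase 1-like whose members differed. DCAR_023984.v1.0 rose, as given above, while its neighbour DCAR_023983.v1.0 had 0.33, 0.87 and 0.00 FPKM in BC and 0.71, 0.13 and 0.84 FPKM in WT.

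The remaining untested members were 4 genes called peroxidase 5-like, 2 called peroxidase 10-like, 1 called peroxidase 3 and 1 called peroxidase 4-like. Peroxidase 3 (DCAR_021186.v1.0) had 1.5, 0.81 and 0.47 FPKM in BC and 0.11, 0.06 and 0.00 FPKM in WT. Peroxidase 4-like (DCAR_011903.v1.0) had at most 0.2 FPKM in any sample. The peroxidase 10-like gene DCAR_025709.v1.0 reached 1.06 FPKM, in BC replicate 3, and the peroxidase 5-like genes stayed at or below 0.76 FPKM.

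The words of the rule miss peroxidases that are named by letters or not named at all. KEGG entry K00430 was given to 53 rows outside the rule, of which 16 passed the filter, 10 higher and 2 lower in BC (22.8% and 23.5% over all tested rows), and 8 of the 10 were tested only through their BC values. Neither of the 2 lower rows is described as a peroxidase, and some of the 10 higher rows are not either. DCAR_004559.v1.0 is described as N-alpha-acetyltransferase 40 and DCAR_030006.v1.0 as a hypothetical protein. With the family taken from entry K00430, a choice made after the data were seen, 19 of 35 tested rows were higher and 3 lower. Of the 19, 11 were tested only through their BC values. Among rows with a WT sample at 1 FPKM, 8 of 24 (33.3%) with that entry were higher, against 18.8% of all such rows. For the rows outside the rule it was 2 of 8 (25.0%). Those outside the rule that rose included 5 called peroxidase N1-like and 2 called peroxidase P7-like. The others that rose were DCAR_009945.v1.0 and DCAR_015100.v1.0, described as hypothetical proteins, and DCAR_021295.v1.0, described as unknown. A peroxidase P7-like gene (DCAR_024791.v1.0) had 53.20, 92.84 and 16.98 FPKM in BC and 0.90, 1.26 and 0.51 FPKM in WT, a difference of 4.59 on the log2(FPKM + 1) scale (limma adjusted p = 0.00101). A peroxidase N1-like row (novel283) had 39.32, 76.35 and 11.70 FPKM in BC and 0.25, 0.10 and 0.39 FPKM in WT (difference 4.78, limma adjusted p = 0.00113). Of these 10 rows, 9 were highest in BC replicate 2 and lowest in BC replicate 3 (32.7% of all rows raised at least 2-fold). The N1-like rows novel464 and novel465 among them matched the same RefSeq protein and stood in a nearly constant ratio of 3.95 to 4.04 over the 6 samples, so they are not independent of each other. The exception, DCAR_009945.v1.0, described as a hypothetical protein, had 55.25, 89.39 and 80.46 FPKM in BC and 0.33, 0.00 and 0.00 FPKM in WT. Among the rows that rose, DCAR_024790.v1.0 was no longer called after removing BC replicate 1 (adjusted p = 0.0602) or WT replicate 1 (0.0521), nor was novel468 after removing BC replicate 1 (0.0702) or WT replicate 1, 2 or 3 (0.0538, 0.0531 and 0.0543). Over 15 alternatives each, their adjusted p ranged from 0.00104 to 0.0602 and from 8.97e-04 to 0.0702 (limma, BH). All rows named in this paragraph were chosen after their values were seen.

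**Figure D4:**
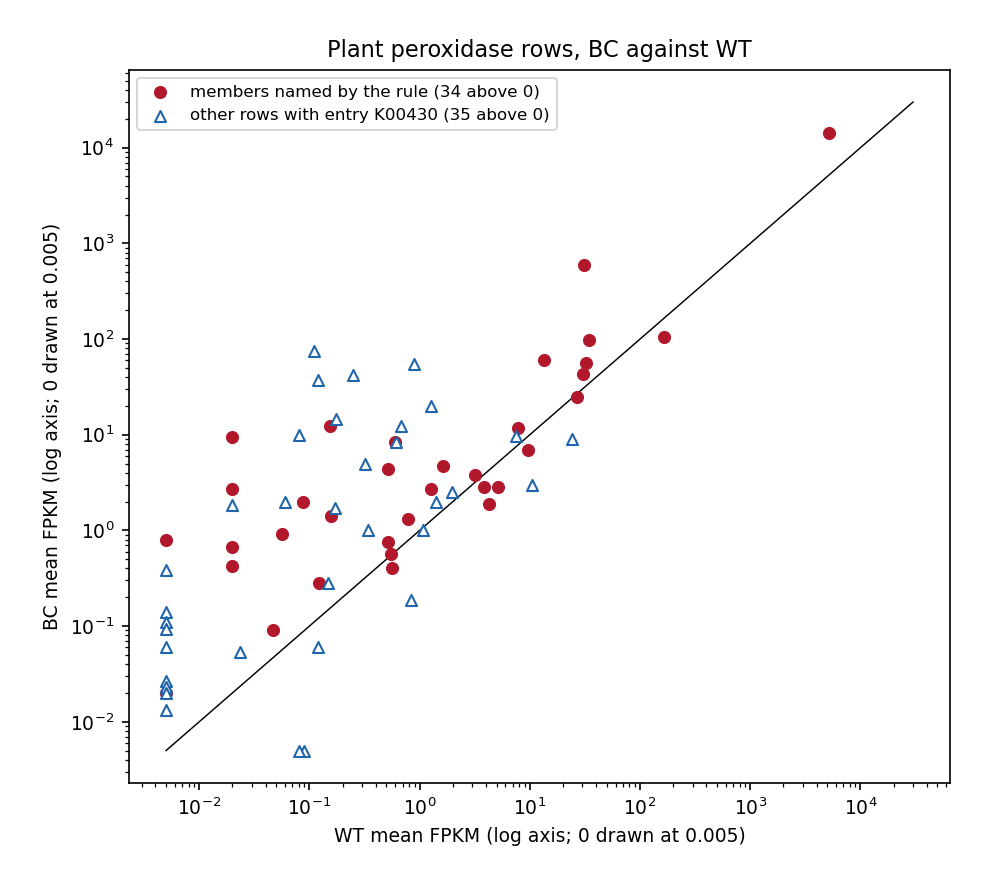
Mean FPKM in BC (vertical) against mean FPKM in WT (horizontal), both on log axes, for the 34 members above 0 (filled circles) and the 35 other rows above 0 with KEGG entry K00430 (open triangles), with the line of equal means. Most points lie above the line, the circle at the upper right is peroxidase 42, and many of the points far above the line have a WT mean under 1 FPKM.

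Hydrogen peroxide is the co-substrate of these enzymes, and oxidant sources (respiratory burst oxidases, superoxide dismutases, germins and amine oxidases) counted 7 higher and 9 lower in BC of 28 tested rows. These shares, 25.0% and 32.1%, lay near the 22.8% and 23.5% of all tested rows, and 1 of the 7 was tested only through its BC values. A germin-like gene (novel1056) had 77.73, 198.83 and 9.94 FPKM in BC and 0.28, 0.36 and 0.14 FPKM in WT, the largest rise in the list. A superoxide dismutase gene (DCAR_003297.v1.0), of the enzyme that turns superoxide into hydrogen peroxide, had 11.30, 5.17 and 3.41 FPKM in BC and 204.24, 114.49 and 169.49 FPKM in WT, the largest fall. The most abundant of the list, superoxide dismutase DCAR_030571.v1.0, fell to 319.1 ± 58.79 FPKM in BC, against 656.9 ± 151.5 FPKM in WT (SD, n = 3 each).

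Among other enzymes that remove hydrogen peroxide (catalases, ascorbate and glutathione peroxidases and peroxiredoxins), 10 of 26 tested rows were higher and 4 lower (38.5% and 15.4%, against 22.8% and 23.5% of all tested rows). A phospholipid hydroperoxide glutathione peroxidase gene (DCAR_004643.v1.0) rose to 431.4 ± 57.69 FPKM in BC, against 25.2 ± 9.48 FPKM in WT. The most abundant member, a catalase-like gene (DCAR_013924.v1.0), had 2578.59, 2893.93 and 1461.10 FPKM in BC and 1208.58, 611.96 and 916.06 FPKM in WT, with a difference of 1.34 on the log2(FPKM + 1) scale (limma adjusted p = 0.0186). Its call was lost without BC replicate 1 (adjusted p = 0.0686), BC replicate 2 (0.0527) or WT replicate 3 (0.0565), within a range from 0.00889 to 0.0686 over 16 alternatives. The row with the largest fall, DCAR_003097.v1.0, is described first as a WVD2-like protein, of microtubules, and entered through a second description. It averaged 69.9 ± 13.2 FPKM in BC and 189.9 ± 15.2 FPKM in WT.

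On the side of the phenolic substrates, 6 of 12 tested rows of the phenylpropanoid entry steps were higher and 1 lower, and 16 of 38 rows of monolignol synthesis and laccases were higher and 4 lower. Over all tested rows 22.8% were higher and 23.5% lower. Of the rows that were higher, 3 of the 6 and 4 of the 16 were tested only through their BC values. Among the rows with a WT sample at 1 FPKM, 3 of 9 (33.3%) and 12 of 34 (35.3%) were higher, against 18.8% of all such rows. Trans-cinnamate 4-monooxygenase, the second enzyme of the pathway (DCAR_018641.v1.0), had 28.81, 52.81 and 10.81 FPKM in BC and 1.66, 2.90 and 2.70 FPKM in WT, while DCAR_027611.v1.0 of similar name fell to 0.67 ± 0.332 FPKM in BC, against 3.40 ± 0.208 FPKM in WT. Laccase 1 (DCAR_012271.v1.0), which like peroxidases oxidises monolignols, had 12.18, 26.42 and 1.53 FPKM in BC and 0.16, 0.04 and 0.12 FPKM in WT, and its call (adjusted p = 0.0184) was lost without BC replicate 1 (0.0683), WT replicate 1 (0.0513) or WT replicate 3 (0.056), in a range from 5.94e-04 to 0.0683 over 15 alternatives (limma, BH). The first enzyme of the monolignol branch, cinnamoyl-CoA reductase 1-like (DCAR_012280.v1.0), had 7.82, 6.04 and 10.40 FPKM in BC and 67.85, 76.35 and 69.40 FPKM in WT. The most abundant row that these words caught was a nascent polypeptide-associated complex gene with no known part in lignin (DCAR_010571.v1.0), at 232.0 ± 13.6 FPKM in BC and 225.0 ± 3.24 FPKM in WT.

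Dirigent proteins guide the coupling of phenoxy radicals, and 4 of 20 rows passed the filter, all 4 of which were higher in BC (22.8% over all tested rows), 2 of them tested only through their BC values. Dirigent protein 2-like (DCAR_019759.v1.0) had 179.62, 222.45 and 69.95 FPKM in BC and 2.13, 2.01 and 3.16 FPKM in WT, and dirigent protein 22-like (DCAR_024343.v1.0), the smallest rise, 13.83, 8.74 and 17.02 FPKM in BC and 5.54, 4.49 and 3.49 FPKM in WT. Casparian strip proteins are scaffolds that place lignin in the root endodermis, and CASP-like proteins are named by likeness to them. Together they were higher in 9 and lower in 2 of 24 tested rows (37.5% and 8.33%, against 22.8% and 23.5% over all). Of the 9, 1 was tested only through its BC values. CASP-like protein 1B1 (DCAR_007799.v1.0) had 24.41, 63.15 and 3.12 FPKM in BC and 0.12, 0.38 and 0.74 FPKM in WT, and its call (adjusted p = 0.0158) was lost without BC replicate 1 (0.0601) or WT replicate 1 (0.0519), in a range from 8.47e-04 to 0.0601 over 15 alternatives (limma, BH). CASP-like protein 5A2 (DCAR_019103.v1.0) fell to 31.3 ± 4.89 FPKM in BC, against 76.5 ± 29.0 FPKM in WT, and the most abundant, CASP-like protein 3A1 (DCAR_016197.v1.0), averaged 96.8 ± 7.14 FPKM in BC and 105.0 ± 29.8 FPKM in WT and did not pass the test.

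Extensins, wall glycoproteins that peroxidases cross-link, were higher in 11 and lower in 7 of 26 tested rows (42.3% and 26.9%, against 22.8% and 23.5% over all), and 1 of the 11 was tested only through its BC values. The most abundant, the proline-rich 33 kDa extensin-related protein DCAR_024247.v1.0, had 10030.07, 11818.66 and 4398.16 FPKM in BC and 78.82, 53.92 and 91.77 FPKM in WT, with the same order of the BC samples as most of the members that rose. Extensin DCAR_030610.v1.0 had 588.91, 1032.41 and 387.77 FPKM in BC and 1.18, 2.49 and 6.76 FPKM in WT. Extensin DCAR_002987.v1.0 went the other way, with 3.17, 0.85 and 6.0 FPKM in BC and 27.33, 26.51 and 28.18 FPKM in WT.

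Markers of other cell types and states differed between the groups too, and their counts stand against 22.8% higher and 23.5% lower over all tested rows. Root markers (phytoene synthases, sucrose synthases and Dau c allergens) were above 0 in all 13 rows and summed to 5288.0 to 10872.2 FPKM in BC and 3110.4 to 3401.5 FPKM in WT, with 5 higher and 2 lower of 10 tested rows. Green tissue markers rose in 34 (79.1%) and fell in 2 of 43 tested rows, with sums of 18238.2 to 20879.5 FPKM in BC and 4470.5 to 7009.5 FPKM in WT, and 1 row at 0. Wounding and defence markers, which include the carrot pathogenesis-related allergens, rose in 15 (48.4%) and fell in 2 of 31 tested rows. They summed to 19758.8, 22899.5 and 11327.3 FPKM in BC replicates 1 to 3 and to 6549.6 to 6725.6 FPKM in WT, and 11 of 50 rows were at 0. Their sums had the same order over the BC samples as peroxidase 42. So did the sums of the root markers and of every neighbouring pathway list above, but not those of green tissue, periderm, phloem and xylem markers. The most abundant row of the wounding and defence list, a carrot pathogenesis-related gene (DCAR_027034.v1.0), is also the most abundant of the root markers and made up most of the root marker sum. It had 8060.28, 9075.69 and 4221.51 FPKM in BC and 2691.28, 2754.09 and 2797.97 FPKM in WT. Its call (limma adjusted p = 0.0149) was lost without BC replicate 1 (0.0563), WT replicate 1 (0.053) or WT replicate 3 (0.0569). The adjusted p ranged from 0.00174 to 0.0569 over 16 alternatives (limma, BH). Suberised periderm markers rose in 4 and fell in 1 of 8 tested rows (130.4 to 159.0 FPKM summed in BC, 65.2 to 79.95 in WT), with 2 of 21 rows at 0. Of those 4 rows, 2 were tested only through their BC values. The row that fell, omega-hydroxypalmitate O-feruloyl transferase-like (DCAR_019247.v1.0), was not called with the replicate block (adjusted p = 0.0827) or after removing BC replicate 1 or 2 (0.0907 and 0.0905) or WT replicate 1, 2 or 3 (0.0622, 0.0653 and 0.125), in a range from 0.00454 to 0.125 over 15 alternatives (limma, BH). Rows tested only through BC also made up 3 of the 34 green tissue rises, 2 of the 15 wounding and defence rises and the xylem row. Phloem markers fell in 5 of 10 tested rows (64.5 to 134.1 FPKM in BC, 335.0 to 1072.2 in WT), with none of 13 rows at 0. Most of the WT sum came from novel558, with 406.90, 672.45 and 178.68 FPKM in WT replicates 1 to 3. That row and novel381, which fell too, matched the same RefSeq protein, so they may not be independent of each other. The xylem words caught 1 row, fasciclin-like arabinogalactan protein 12, at 2.29 ± 0.679 FPKM in BC and 0.227 ± 0.0635 FPKM in WT (SD, n = 3 each). The part of any of these in the peroxidase differences was not tested.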

How the data were processed

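RNA-seq of 3 BC and 3 WT carrot fleshy roots was deposited by the authors as 1 table of FPKM per gene and sample, rounded to 2 decimals, with NR, UniProt, GO, KEGG and Pfam annotation. RSEM is named in the submitters' processing notes, without a version. No source used here gives the aligner, genome build or gene annotation. FPKM are not counts, so the depth behind a value is unknown and counting error is not given. Sums of FPKM ran from 1184875.3 to 1287459.4 in BC and from 1141945.5 to 1186758.2 in WT, and values above 0 were listed for 24954 to 25274 and 24137 to 24257 rows.

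Sample columns were assigned through the description of each sample. Rows that reached 1 FPKM in 3 or more samples were fitted, on the scale log2(FPKM + 1), BC minus WT, with limma 3.58.1 in R 4.3.3 (eBayes with trend) and Benjamini-Hochberg adjustment over all 21033 rows, called at an adjusted p below 0.05. The pseudocount makes the changes of low genes look smaller than they are. The members and lists were chosen with earlier results of these data known, so their counts are descriptions, without a test of the list. All tested members are named. Of the lists of neighbouring pathways, the called rows with the largest and smallest difference and the most abundant row are named. Other names were chosen after their values were seen. Lists were words searched in the NR descriptions, and some caught genes of other function, which were kept. The fit was tested on simulated data with the mean and SD of each row, in which 200 rows were changed. It recovered 12%, 66%, 74% and 96% of changes of 0.5, 1, 2 and 3 on the log2 scale, and called 11 of 20833 unchanged rows. Far fewer rows were changed there than were called in the data, so the shares may differ. A member that did not pass the test is thus not shown to be unchanged. RefSeq's DH1 v3.0 table was used for gene order only. No sequences were used here. Alternatives were quantile normalization, equal totals, size factors by median ratios, other pseudocounts (0.1, 5), a filter at 5 FPKM or none, a robust eBayes or one without trend, a replicate block and each sample left out. Tables and figures were made with Python 3.11.15, pandas 2.3.3 and matplotlib 3.10.9.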

Additional observations from a re-analysis of the deposited data

How the results depend on the processing

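The number of tested members higher in BC was 9, and 6 to 10 under the other settings that kept the members, all within 1.5 times of it. It was 19 when members were taken by KEGG entry K00430, which adds rows by construction. The 1 member lower in BC, a peroxidase 73-like row, was not called with no filter, with a filter at 5 FPKM (where it was not tested), with median-ratio size factors or with the replicate block, each giving 0, and leaving out 1 sample gave 0 to 1. By KEGG entry K00430, 3 rows were lower. Over all rows, leaving out 1 sample gave 3446 to 4873 higher and 3193 to 5203 lower, the lowest count of falls being without WT replicate 3. Peroxidase 16-like changed sign, uncalled throughout, with a difference of -0.06 as reported, 0.04 with a pseudocount of 5, 0.14 without WT replicate 2 and -0.63 to 0.56 over all left-out samples. Over the 20 tested members and their alternatives, 272 results kept direction and side of the threshold, 32 lost a call and 4 gained one. The causes were not tested. With equal totals the median of all rows moved to -0.11 and that of the members to 0.55. Same-numbered BC and WT samples correlated at 0.196, -0.356 and -0.195 in their deviations from the group means, so the numbers were not taken as pairs. With the replicate block 9 members were higher and 0 lower, peroxidase 44 lost its call and the peroxidase 45-like gene DCAR_017987.v1.0 gained one (adjusted p = 0.038, limma with Benjamini-Hochberg), and 4032 rows were higher and 3921 lower. Unknown depth limits what can be said of rows under 1 FPKM.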
